A study of Artemisia annua with 12 samples.

Results

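The 235 genes described here were those whose leaf transcript level was at least 1 higher on the log2(value + 1) scale after 6 h of UV-B than after 4 h. They were 235 of 63226 gene identifiers in the table, and of the 25841 that reached a value of 1 in at least 3 of the 12 libraries, the minimum for membership and for testing. Membership was decided by the mean levels of the harvests at 4 and 6 h, 3 libraries each, so the difference between those harvests is given below as a description and is not tested. The working name of the set was genes that rise only between 4 and 6 h, and for many members the earlier harvests went against the word only. Of the 235 genes, 127 (54.0%) were called different between 0 and 2 h or between 2 and 4 h, fewer than the 72.9% of all tested genes with such a call. Another 8 combined a call between 4 and 6 h with no call in any earlier comparison. The call between 4 and 6 h comes from the contrast that chose the members. The share of all tested genes with that combination was not counted, so nothing is read from the number 8.

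UV-B is a short-wave part of the sunlight that reaches the ground. Plants perceive it through the photoreceptor UVR8, which acts with the regulators COP1 and HY5 to switch on genes for light acclimation, among them those for flavonoid sunscreens and for repair of DNA damage. At higher doses it also triggers stress and wound signalling. Artemisia annua is known for artemisinin, an antimalarial sesquiterpene made in glandular trichomes of its leaves. Which of these functions the 235 genes serve is not known here, because the identifiers come without gene names or functions.

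The samples were leaves of wild-type seedlings of the high-artemisinin cultivar Huhao 1, aged 6 weeks. The seedlings received narrowband UV-B of 1.5 μmol per square metre and second from extra lamps for 0 h (UV0), 2 h (UV2), 4 h (UV4) or 6 h (UV6). Each harvest has 3 libraries, described by the labels as biological repeats, and each library pooled the youngest expanded leaves of 3 seedlings. No library comes from seedlings held without the lamps to 2, 4 or 6 h, so the length of exposure and the time of day cannot be told apart. In whole leaves, a change in the number of cells of a type and a change in RNA per cell cannot be told apart either. The leaf identity could not be checked against marker genes, since genes are not named.

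The values are normalised expression signals without a stated unit. They sum to between 851404 and 868133 per library and behave like TPM or FPKM, which divide by gene length. Read depth is unknown, so no counting interval is given, and a value listed at 0 may stand for a low level or a failed estimate. Median-ratio size factors were 0.895 to 0.906 in the libraries at 0 h and 1.05 to 1.09 in those at 4 and 6 h. The main counts use the values as deposited, and several are also given with median-ratio scaling. Replicate 1 at 2 h had a size factor of 1.04, against 0.990 and 0.988 in the other libraries of that harvest. The main counts that rest on the 2 h harvest are therefore also given without it.

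As a group, the 235 genes stood high after 2 h, lower after 4 h and highest after 6 h. Their summed value averaged 2373 ± 84.0 before UV-B, 3975 ± 43.4 after 2 h, 2539 ± 103 after 4 h and 6627 ± 57.0 after 6 h (SD, n = 3 each). With median-ratio scaling the means were 2631 before UV-B, 3957 after 2 h, 2361 after 4 h and 6225 after 6 h, which turns the order of the 0 and 4 h harvests. As a share of the library total this was 0.274% before UV-B, 0.465% after 2 h, 0.296% after 4 h and 0.775% after 6 h. Every library at 2 h lay above every library at 0 h, by a ratio of means of 1.67. Of single members, 99 (42.1%) had all 3 libraries at 2 h above all 3 at 0 h, against 39.3% of all tested genes, a share near the background. The low sum at 4 h and the high sum at 6 h follow in part from the membership rule, which the harvests at 0 and 2 h entered only through the minimum value in 3 libraries. Members at a value of 1 or more numbered 143 ± 3.21 before UV-B, 179 ± 6.51 after 2 h, 152 ± 5.29 after 4 h and 219 ± 3.61 after 6 h.

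**Figure D1:**
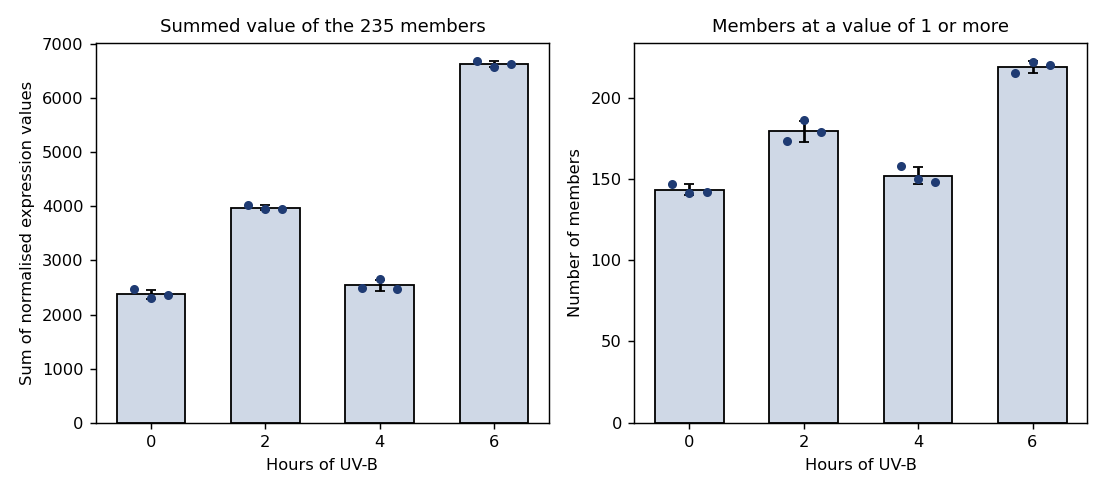
Summed normalised expression value of the 235 members (left) and number of members at a value of 1 or more (right) against hours of UV-B. Bars are means of 3 libraries, error bars are SD and points are single libraries. The mean sum is 3975 after 2 h, 2539 after 4 h and 6627 after 6 h.

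The sum was carried by few genes. At 6 h the highest member held 9.90% of it, the 5 highest 29.8% and the 20 highest 60.2%. The median member was far lower, at 2.18 before UV-B, 4.43 after 2 h, 2.44 after 4 h and 8.03 after 6 h. The highest of the 4 harvest means was that at 6 h for 171 members, that at 2 h for 37 and that at 0 h for 27. The lowest was that at 0 h for 116 members, at 4 h for 95 and at 2 h for 24.

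The difference between 6 and 4 h had a median of 1.27 on the log2(value + 1) scale, an upper quartile of 1.52 and a maximum of 3.22, and 16 members reached 2 or more. In 147 members all 3 libraries at 6 h lay above all 3 at 4 h, as they did in 12.7% of tested genes, a count to which the rule itself leads. In 91 members (38.7%) all 3 libraries at 6 h lay above all 9 earlier ones, against 5.77% of all tested genes, a count that the rule also favours. With limma, 107 of the 235 members were called higher at 6 h than at 4 h (45.5%), where 4.44% of all tested genes were higher and 5.47% lower. Nothing is read from that share, as this contrast chose the members. The 3 members just inside the limit differed by 1.00, 1.00 and 1.01, with harvest means of 1.48 at 6 h against 0.183 at 4 h, 13.1 against 6.44 and 1.74 against 0.203. The 3 genes just outside differed by 0.996, 0.997 and 0.999. One of them had 291, 282 and 296 at 6 h against 144, 141 and 149 at 4 h, with no overlap between the harvests.

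The difference between 2 h and 0 h did not enter the rule, although the values of both harvests count towards the minimum in 3 libraries that every tested gene had to meet. The comparison asked how the genes that stood out at 6 h had responded to the first 2 h of UV-B. Of the 235 members, 96 (40.9%) had risen at 2 h and 11 (4.68%) had fallen, and 128 did not pass the test (limma, adjusted p under 0.05 over all tested genes). Among all tested genes 36.2% had risen and 20.8% had fallen. On the values as deposited, the share of risen members was thus near the background, and the share of fallen members below it. Within the 0 and 2 h harvests the members had a median SD of log2(value + 1) of 0.489, against 0.133 in all tested genes. Scatter limits calls in both directions, and the 27 members listed at 0 in all libraries at 0 h could not fall. How far this lowered either share was not tested. Scaling the libraries by median ratios centres the changes of all genes. It left 93 members (39.6%) higher and 14 (5.96%) lower, against 28.7% and 28.0% of all tested genes. The risen share then lay above the background. Rises of at least 1 on the log2 scale were called for 75 members (31.9%), against 10.3% of all tested genes, and falls of that size for 9 members, against 4.73% of all tested genes. The median log2 change at 2 h was 0.66 for the members and 0.13 for all tested genes. Without replicate 1 at 2 h, 93 members had risen and 10 had fallen, and 230 of the members still met the rule.

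**Figure D2:**
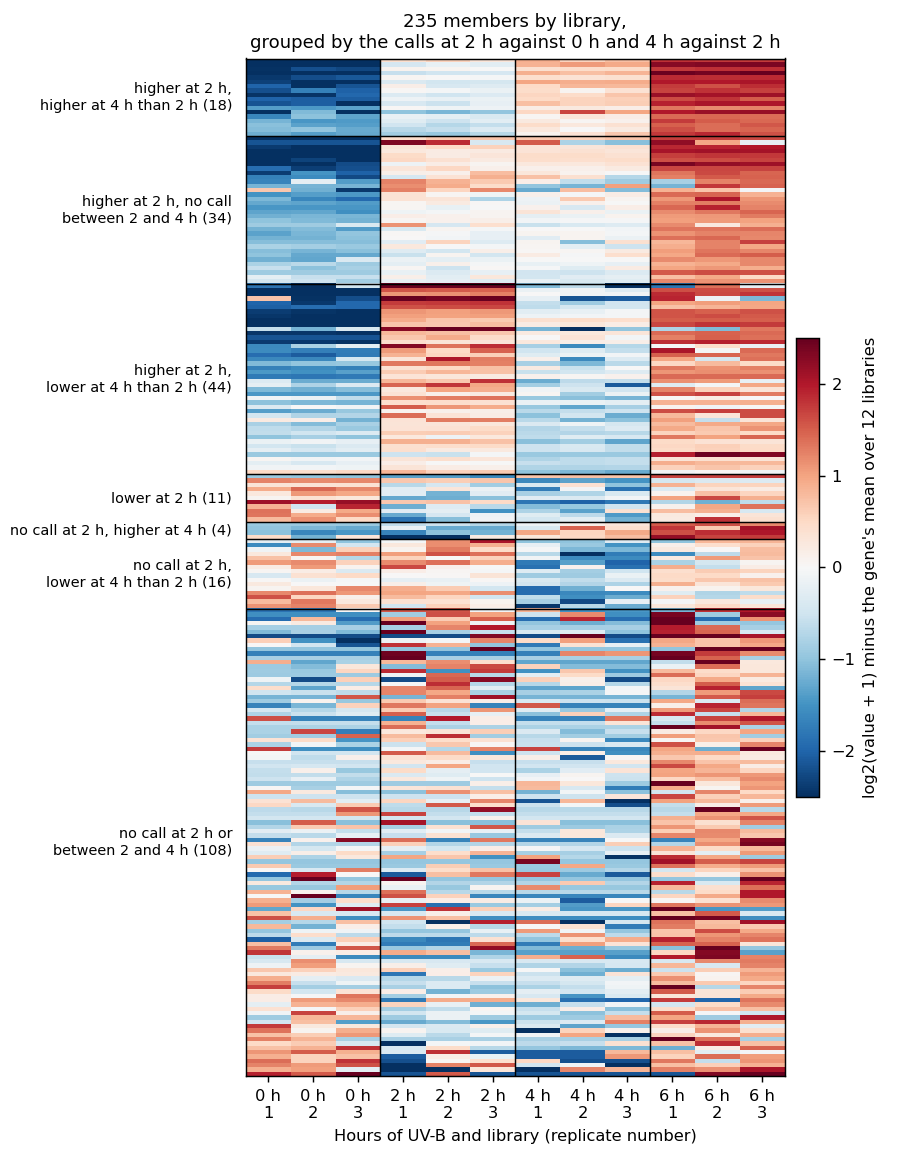
Level of each of the 235 members (rows) in each of the 12 libraries (columns, by hours of UV-B and replicate number), as log2(value + 1) minus the gene's mean over the libraries. Rows are grouped by limma calls at 2 h against 0 h and at 4 h against 2 h, with the number of genes in brackets. The 44 genes that rose at 2 h and had lower levels at 4 h run through blue at 0 h, red at 2 h, pale or blue at 4 h and mostly red at 6 h, while the 108 without a call vary between libraries of the same harvest.

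The call between 4 and 6 h was used to set regular members apart from scattered ones. Within the 0 and 2 h harvests, which the rule used only for the minimum value, the SD of log2(value + 1) between libraries had a median of 0.153 in the 107 members called between 4 and 6 h and of 0.859 in the 128 not called, against 0.133 in all tested genes. The 90th percentile of that spread over all tested genes was 0.354, and 11 of the called and 122 of the uncalled members lay above it. The difference between 6 and 4 h had nearly the same median in both, 1.28 in called and 1.26 in uncalled members. At differences of like size, a call depends on the spread of each gene. The calls also rest on a spread pooled over all 12 libraries, so this separation is largely built in. Where the calls between 4 and 6 h came from those 6 libraries alone, 101 members were called and 134 were not. The median spread at 0 and 2 h was then 0.147 and 0.780, and these calls too depend on the spread of each gene. A value of 0 in at least 1 library was listed for 26 of the 107 called members (24.3%) and for 84 of the 128 uncalled members (65.6%), against 8.91% of all tested genes.

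**Figure D3:**
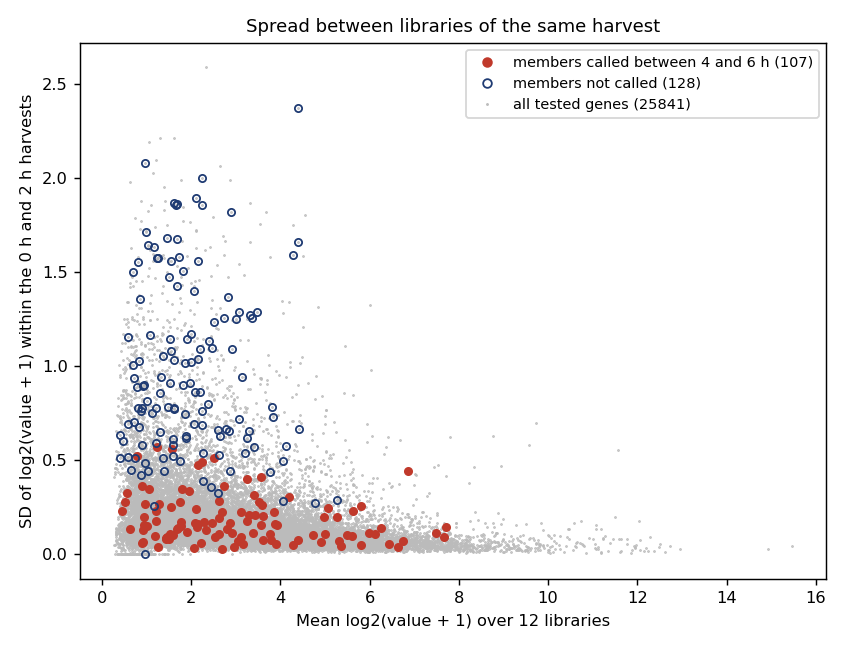
Spread between libraries of the same harvest (SD of log2(value + 1) within the 0 and 2 h harvests, pooled) against the mean level over 12 libraries. Filled points are the 107 members called between 4 and 6 h, open points the 128 members not called and grey dots all 25841 tested genes. Of the open points, 122 lie above a spread of 0.354, the 90th percentile of all tested genes.

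The scatter was also present at higher levels. At a mean log2(value + 1) of 2 to 3, the median spread was 0.165 in 23 called members, 0.862 in 31 uncalled members and 0.149 in all 5637 tested genes. At 4 to 6 it was 0.103 in 17 called members, 0.575 in 9 uncalled members and 0.0905 in all 4942 tested genes. Membership of many scattered genes rested on single libraries. When any 1 of the 6 libraries at 4 and 6 h was left out of the rule, 78 of the 107 called members met it each time, but only 26 of the 128 uncalled members did.

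The 2 h harvest was also set out by the call between 4 and 6 h, as a description, since that call comes from the contrast that chose the members. Of the 107 called members, 81 (75.7%) had risen at 2 h and 6 had fallen, with a median log2 change of 1.099. Of the 128 uncalled members, 15 (11.7%) had risen and 5 had fallen, with a median of 0.18. Over all tested genes 36.2% had risen and 20.8% had fallen, with a median of 0.13. Genes with little scatter pass both tests more easily, and the 2 calls share one estimate of the spread. With the call taken from the 4 and 6 h libraries alone, 78 of 101 (77.2%) and 18 of 134 (13.4%) had risen at 2 h. How far scatter alone sets this difference was not tested.

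Courses up to 4 h were read from the calls at 2 h against 0 h and at 4 h against 2 h. The second of these shares the 4 h libraries with the rule, which favours low values there. In that comparison 24 members (10.2%) were higher at 4 h and 63 (26.8%) lower, against 31.1% and 19.5% of all tested genes. Without replicate 1 at 2 h these counts were 21 and 62. The most frequent course with a call comprised 44 members (18.7%) that rose at 2 h and had dropped below that level by 4 h, a course that 12.4% of all tested genes took. Without replicate 1 at 2 h there were again 44. Their median value was 1.84 before UV-B, 15.6 after 2 h, 3.87 after 4 h and 10.7 after 6 h. A median of 68.6% of their rise at 2 h on the log2 scale was lost by 4 h. At 6 h, where the rule favours high values, 22 of them were called above their 2 h level, 11 below it and 11 without a call, while 29.9% of all tested genes were above and 20.0% below. Against 0 h, 37 were called higher at 6 h, 1 lower and 6 without a call, while 41.3% of all tested genes were higher and 18.5% lower. The 44 were picked by calls that use the same 0 and 2 h libraries, so all tested genes are not a matched background. Calls at 6 h among all tested genes with this course were not counted, and nothing is read from these comparisons.

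The member with the third highest value at 6 h showed this course. It was measured at 19.9, 18.8 and 17.4 at 0 h, 232, 218 and 229 at 2 h, 89.5, 94.0 and 104 at 4 h and 318, 304 and 324 at 6 h. No library of one harvest overlapped another, and the 2 h level was 12.1 times the mean at 0 h (log2 change 3.53 ± 0.060 SE by limma, adjusted p = 2.97e-12). The member ranked 4 at 6 h ran in parallel at a lower level. Its values were 15.1, 14.0 and 13.5 at 0 h, 176, 173 and 175 at 2 h, 78.4, 81.6 and 82.4 at 4 h and 256, 267 and 251 at 6 h. Its ratio of means at 2 h over 0 h was 12.3 (log2 change 3.53 ± 0.042 SE by limma, adjusted p = 2e-13). In both genes the value at 4 h lay between those at 0 and 2 h, and the value at 6 h above all others.

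The second highest member dipped less. It stood at 28.5, 26.3 and 25.5 at 0 h, 341, 291 and 283 at 2 h, 236, 245 and 240 at 4 h and 511, 511 and 509 at 6 h. Replicate 1 at 2 h was the highest of its harvest, and none of the 4 harvests overlapped (2 h against 0 h: limma log2 change 3.46 ± 0.062 SE, adjusted p = 4.27e-12). The seventh highest member had started high, with 287, 275 and 292 at 0 h, 359, 303 and 321 at 2 h, 101, 92.8 and 84.3 at 4 h and 191, 206 and 187 at 6 h. Its rise at 2 h was small (log2 change 0.20 ± 0.072 SE by limma, adjusted p = 0.0346), and at 6 h its value was again below every library at 0 h. Its membership records a partial recovery from a loss between 2 and 4 h.

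**Figure D4:**
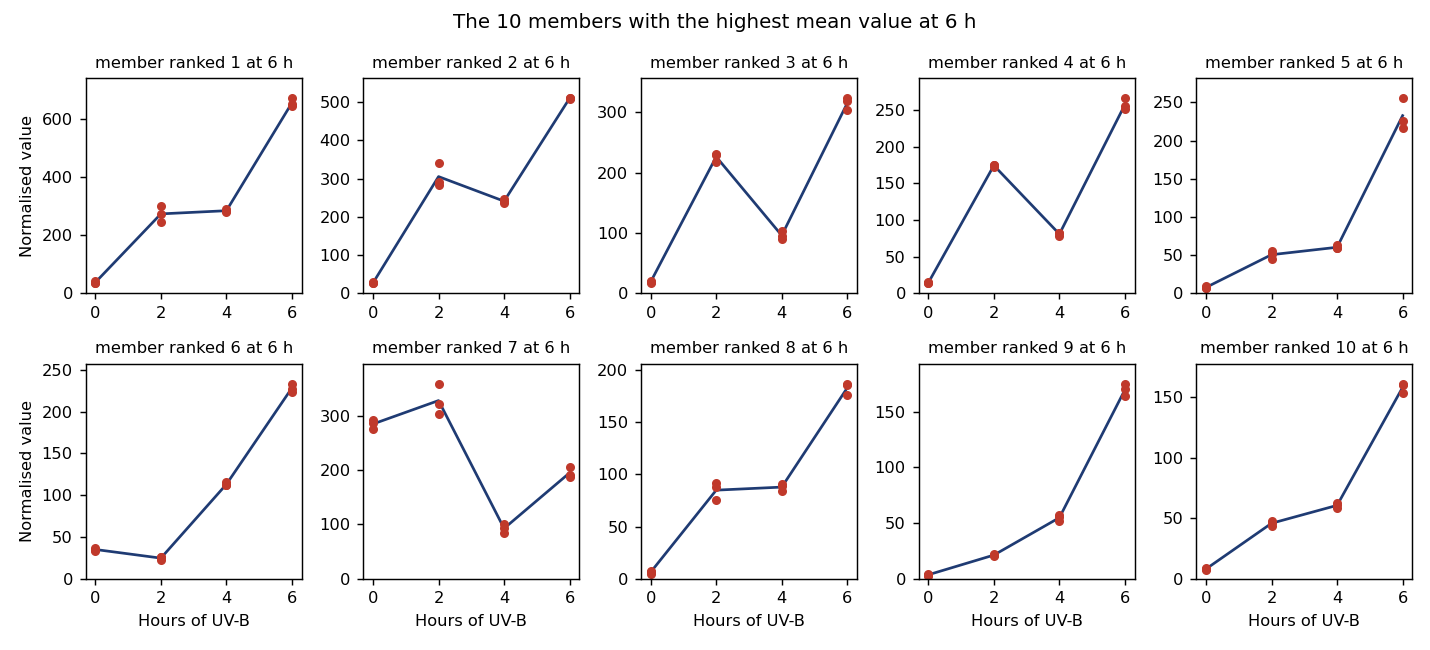
Normalised value of the 10 members with the highest mean at 6 h, one panel each, against hours of UV-B. Points are single libraries and the line joins harvest means, on a linear axis from 0 scaled to each gene. All panels but the sixth show a rise at 2 h, and the members ranked 3 and 4 have means of 95.7 and 80.8 at 4 h and of 315 and 258 at 6 h.

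A rise at 2 h followed by no call between 2 and 4 h was found for 34 members (14.5%, against 14.9% of all tested genes), with median values of 0.473 before UV-B, 3.78 after 2 h, 3.12 after 4 h and 7.16 after 6 h. The member with the highest value at 6 h belonged to these. It was measured at 33.8, 41.4 and 36.1 at 0 h, 302, 273 and 245 at 2 h, 283, 281 and 289 at 4 h and 644, 652 and 673 at 6 h. The libraries at 2 and 4 h overlapped, and those at 0 and 6 h lay apart from all others (2 h against 0 h: ratio of means 7.37, limma log2 change 2.85 ± 0.077 SE, adjusted p = 1.23e-10). The fifth highest member took the same 2 steps, with 6.78, 6.26 and 9.50 at 0 h, 44.6, 55.7 and 51.0 at 2 h, 58.9, 58.8 and 62.8 at 4 h and 256, 226 and 216 at 6 h. Its ratio of means at 6 h over 4 h was 3.87, compared with 6.71 at 2 h over 0 h (log2 change 2.61 ± 0.128 SE by limma, adjusted p = 2.08e-08). The eighth had 4.62, 7.80 and 6.59 at 0 h, 75.3, 87.9 and 91.6 at 2 h, 88.7, 83.8 and 91.0 at 4 h and 187, 186 and 176 at 6 h, so its level at 4 h overlapped that at 2 h.

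A further 18 members (7.66%, against 8.85% of all tested genes) rose at 2 h, were higher again at 4 h and, by the rule, higher still at 6 h. Without replicate 1 at 2 h there were 15. Their medians were 1.53 before UV-B, 5.50 after 2 h, 12.5 after 4 h and 26.7 after 6 h. The ninth highest member was the highest of these, with 3.49, 2.81 and 4.53 at 0 h, 20.1, 21.4 and 22.5 at 2 h, 57.4, 51.9 and 55.4 at 4 h and 170, 164 and 175 at 6 h. Each harvest lay above the one before without overlap, and the mean at 6 h was 47.0-fold that at 0 h (2 h against 0 h: limma log2 change 2.29 ± 0.108 SE, adjusted p = 1.03e-08). The tenth, with 7.17, 8.78 and 8.36 at 0 h and 153, 160 and 161 at 6 h, passed 47.3, 46.1 and 43.9 at 2 h and 58.3, 61.1 and 62.3 at 4 h.

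**Figure D5:**
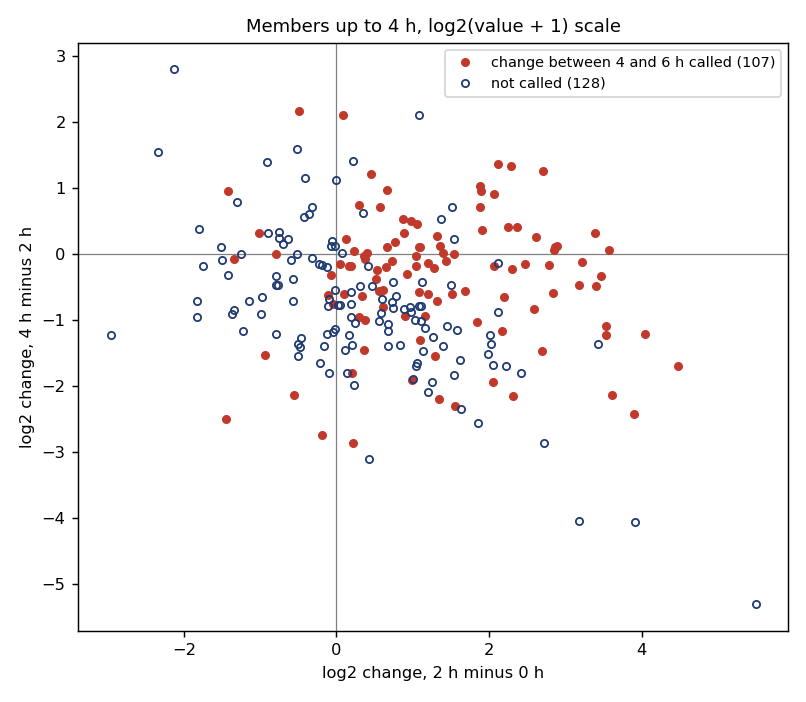
Log2 change between 2 and 4 h (vertical) against log2 change between 0 and 2 h (horizontal) for the 235 members on the log2(value + 1) scale; both axes use the 2 h libraries, so scatter there pulls points along the falling diagonal. Filled points are the 107 members called between 4 and 6 h and open points the 128 not called. Most filled points lie to the right of 0, where 81 of them had risen at 2 h. Of all 235 members 40.9% had risen, and of all tested genes 36.2%. The call that sets filled from open points comes from the contrast that chose the members and favours genes with little scatter.

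The 11 members that fell at 2 h had medians of 17.5 before UV-B, 5.62 after 2 h, 6.44 after 4 h and 13.1 after 6 h. At 6 h, 4 of them were called below 0 h, 2 above it and 5 without a call, where 18.5% of all tested genes were below and 41.3% above. The 11 were picked by a call against the same 0 h libraries, so those shares are not a matched background. Other tested genes that fell at 2 h were not counted at 6 h. The second highest member at 0 h was among them, with 277, 249 and 287 at 0 h, 101, 106 and 89.3 at 2 h, 17.2, 14.7 and 17.6 at 4 h and 37.5, 26.9 and 39.9 at 6 h. Its fall at 2 h passed the test (log2 change -1.45 ± 0.133 SE by limma, adjusted p = 4.05e-06), and its mean at 6 h was 0.128 of that at 0 h, so it entered the set as a small regain after a deep loss. The sixth highest member at 6 h turned the other way. It had 36.5, 34.9 and 33.8 at 0 h, 26.5, 25.7 and 21.9 at 2 h, 112, 115 and 112 at 4 h and 224, 228 and 234 at 6 h. A fall at 2 h (log2 change -0.49 ± 0.061 SE by limma, adjusted p = 3.61e-05) thus came before values above every earlier library at both later harvests.

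Members without a call at 2 h that differed between 2 and 4 h were few. Lower at 4 h than at 2 h were 16 (6.81%, against 4.49% of all tested genes), with medians of 9.37 before UV-B, 9.02 after 2 h, 1.60 after 4 h and 4.73 after 6 h. Higher at 4 h than at 2 h were 4 (1.70%, against 11.5% of all tested genes). The remaining 108 members (46.0%, against 27.1% of all tested genes) had no call in either interval, and 98 of them had none between 4 and 6 h either. Without replicate 1 at 2 h there were 112.

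The 8 members closest to the working name had a call between 4 and 6 h and none at 2 h against 0 h, 4 h against 2 h or 4 h against 0 h. They were genes of low level, and the share of all tested genes with the same calls was not counted. The highest of them had 2.77, 2.59 and 3.94 at 0 h, 2.85, 6.45 and 1.99 at 2 h, 3.46, 5.93 and 3.44 at 4 h and between 8.16 and 12.3 at 6 h. All 3 libraries at 6 h lay above the 9 earlier ones, which overlapped freely. The means of the other 7 at 6 h lay between 1.81 and 5.97. The member ranked 4 among the 8 was at 0.19, 1.78 and 0.77 at 2 h and at 4.20, 0.92 and 3.05 at 6 h. These harvests overlapped, and its level at 6 h was not called above that at 2 h (limma adjusted p = 0.0672). A missing call does not show that these genes were level before 4 h.

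In the whole set, 36 members reached the minimum for testing only with the help of the 6 h libraries, so that they had to be high there. Of these, 7 stood below 1 in all 9 earlier libraries. CTI12_AA285320 was one of these 7, and it had the second largest difference between 6 and 4 h of the 235 genes (3.18 on the log2(value + 1) scale). It was listed at 0 in all 3 libraries at 0 h, at 0.34, 0.30 and 0.85 at 2 h, at 0 in all 3 at 4 h and at 6.36, 9.50 and 8.56 at 6 h. The small rise at 2 h passed the test (log2 change 0.56 ± 0.161 SE by limma, adjusted p = 0.0112), but its size is set by the pseudocount. With a pseudocount of 5 the change was 0.14 and no longer passed.

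The largest difference between 6 and 4 h belonged to CTI12_AA287010, a scattered gene (3.22 on the log2(value + 1) scale). Its values were 16.0, 11.98 and 26.6 at 0 h, 0, 11.96 and 0 at 2 h, 0 in all 3 libraries at 4 h and 0, 21.2 and 35.5 at 6 h. The libraries at 6 h overlapped those at every other harvest, and its log2 difference at 2 h against 0 h was -2.96 ± 1.32 SE (limma adjusted p = 0.0814). Without replicate 2 at 2 h, the only library with a value above 0 there, the difference was -4.19 and passed the test, and it also passed without replicate 1 at 6 h.

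CTI12_AA588290 and CTI12_AA490510 had the lowest log2 differences at 2 h against 0 h among the other members, and neither passed the test. CTI12_AA588290 was listed at 12.1, 13.5 and 4.96 at 0 h, 0, 0 and 7.73 at 2 h, 0, 15.6 and 11.8 at 4 h and 15.9, 14.7 and 28.4 at 6 h (2 h against 0 h: limma log2 difference -2.34 ± 1.11 SE, adjusted p = 0.0987). CTI12_AA490510 stood at 28.4, 8.29 and 24.96 at 0 h, 1.01, 0.71 and 23.8 at 2 h, 24.8, 29.3 and 35.3 at 4 h and 95.7, 67.5 and 70.2 at 6 h (2 h against 0 h: limma log2 difference -2.12 ± 0.880 SE, adjusted p = 0.0628). At 2 h, replicate 3 of this gene was near its 0 h values and the other libraries were not, while at 6 h all 3 lay above every earlier library. Without replicate 3 at 2 h, the differences were -3.38 for CTI12_AA588290 and -3.37 for CTI12_AA490510, and both passed. CTI12_AA588290 also passed without replicate 1 at 4 h, and CTI12_AA490510 without replicate 2 at 0 h (-2.65) and with median-ratio scaling (-2.27).

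At 0 h, 27 members were listed at 0 in all 3 libraries. Of these, 14 were above 0 in all 3 libraries at 2 h, 9 at 4 h and 21 at 6 h, and 10 were called higher at 2 h. Among all tested genes 36.2% were called higher at 2 h, but a gene listed at 0 can only stay or rise. That share is therefore not a matched background, and tested genes listed at 0 at 0 h were not counted separately. The count at 6 h is favoured by the rule. The second highest of them at 6 h was listed at 0 at 0 h, at 22.1, 21.3 and 20.5 at 2 h, at 5.97, 6.30 and 5.23 at 4 h and at 22.5, 23.0 and 22.4 at 6 h (limma adjusted p = 1.48e-12 at 2 h against 0 h). Its level at 6 h was 0.08 above that at 2 h on the log2(value + 1) scale, and all libraries at 4 h lay below both. Another was listed at 0 at 0 h, at 9.43, 9.31 and 9.92 at 2 h, at 6.39, 6.78 and 6.33 at 4 h and at 19.4, 21.5 and 20.7 at 6 h, above its 2 h level in all 3 libraries. The member of this group with the highest mean at 6 h was a scattered one, at 0, 0 and 22.6 at 2 h, 0, 101 and 0 at 4 h and 85.1, 30.2 and 18.8 at 6 h, and its libraries at 4 and 6 h overlapped.

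Where the members stood at 6 h against 0 h is affected by the rule, which favours high values at 6 h. In that comparison 120 members (51.1%) were called higher, 7 lower and 108 neither, where 41.3% and 18.5% of all tested genes were higher and lower. At 4 h against 0 h, where the rule favours low values, 72 members (30.6%) were called higher and 39 (16.6%) lower, against 42.0% and 18.0% of all tested genes. Of the 120, 67 were also called higher at both 2 and 4 h, and 24 had no call at 2 or 4 h. Of the 39 called lower at 4 h, 21 had no call against 0 h at 6 h, 11 were called higher and 7 were still lower. The shares of all tested genes with these combinations of calls were not counted, so nothing is read from the combined counts. At 6 h against 2 h, 104 members (44.3%) were higher and 16 (6.81%) lower, against 29.9% and 20.0% of all tested genes, and without replicate 1 at 2 h 99 were higher and 14 lower. With median-ratio scaling, the members called higher and lower numbered 114 and 7 at 6 h against 0 h, 68 and 43 at 4 h against 0 h, 22 and 66 at 4 h against 2 h and 101 and 16 at 6 h against 2 h. Under that scaling all tested genes split nearly evenly, with 7398 higher and 7342 lower at 6 h against 0 h, 7349 and 7310 at 4 h against 0 h, 6403 and 6129 at 4 h against 2 h and 6358 and 6224 at 6 h against 2 h. These comparisons share the libraries at 0, 2 or 6 h, and so are not independent of one another.

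Under the same minimum value, 163 genes were lower by at least 1 at 6 h than at 4 h. Over all tested genes without a minimum change, 1148 were called higher and 1413 lower at 6 h than at 4 h.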

How the data were processed

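RNA from 12 leaf libraries was sequenced, 3 at each of 4 harvests. The deposited file holds a normalised expression signal per gene from the authors, rounded to 2 decimals, with no unit in its header; 0 of its columns belonged to other samples. HISAT2 2.1.0, Salmon and DESeq are named without roles in the submitters' processing notes, and for the genome build the sources used here give no name. Values were taken as log2(value + 1), a scale that understates changes of low genes. Genes at 1 or more in at least 3 libraries were tested with limma 3.58.1 (R 4.3.3; trend and robust estimation, all 12 libraries in 4 groups), with a call where the p adjusted by Benjamini and Hochberg was under 0.05 over all 25841 tested genes. The procedure was also run on simulated data with normal noise and few genes changed at 2 h. That setting is simpler than these data, so nothing is read from it. P-values compare a difference of harvest means with the spread between libraries, which limma moderates over all tested genes. Each library is a pool of 3 seedlings. Ratios of means were taken on the values as deposited. The labels state no pairing of libraries, so the fit has no replicate term. Same-numbered libraries did not deviate together (correlations of -0.02 to 0.04).

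The members and the courses were chosen with earlier results of these data known. The rule for named genes was the 2 largest differences between 6 and 4 h and the 2 lowest at 2 h against 0 h; other members, picked by rank after their values were seen, are given without identifiers. Lists of gene names were not tested, as identifiers are not paired with names. Alternatives were other pseudocounts, filters, scaling, fits and left-out libraries.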

Additional observations from a re-analysis of the deposited data

Results flagged for a closer look

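The response against 0 h differed between exposed harvests, by the limma test of the difference itself, for some members. Against 2 h, 63 members (26.8%) were lower and 24 (10.2%) higher at 4 h, while 19.5% of all tested genes were lower and 31.1% higher. Against the same harvest, 104 members (44.3%) were higher and 16 (6.81%) lower at 6 h, while 29.9% of all tested genes were higher and 20.0% lower. The rule favours low values at 4 h and high values at 6 h, so these counts describe the set. CTI12_AA285320 had log2(value + 1) differences of -0.56 at 4 h against 2 h and of 2.61 at 6 h against 2 h. CTI12_AA588290 differed by 3.27 at 6 h against 2 h. CTI12_AA490510 differed by 2.79 at 4 h against 2 h and by 4.14 at 6 h against 2 h, where replicate 3 at 2 h stood apart from the other libraries. CTI12_AA588290 and CTI12_AA490510 were named for their low differences at 2 h against 0 h. Higher values after 2 h follow in part from that pick, and CTI12_AA285320 was named for its difference between 6 and 4 h. The differences of these genes are therefore descriptions. Harvests of 3 libraries were too small for a test of single outlying libraries.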

How the results depend on the processing

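The size of the set depended on the pseudocount: 628 genes met the rule with 0.1 and 55 with 5, and the 55 were all among the 235. It was 279 without a filter, 163 with a minimum of 5 and 229 with median-ratio scaling. Leaving out 1 library gave 230 to 276 genes, of which 182 to 202 were members where that library was one at 4 or 6 h. Under the alternatives other than left-out libraries, 75 to 100 members had risen and 9 to 14 had fallen at 2 h. These counts do not all refer to 235 genes. With the minimum of 5 only 163 members could be tested, and 82 had risen and 12 had fallen. With a minimum change of 1 on the log2 scale, 24 members in place of 39 were lower at 4 h against 0 h, 40 in place of 63 were lower and 10 in place of 24 higher at 4 h against 2 h. A model of only the 2 harvests compared called 11 members lower at 6 h against 0 h in place of 7. The median log2 change of the members at 2 h was 1.14 with a pseudocount of 0.1, 0.25 with 5, 0.98 with the filter of 5 and 0.59 with median-ratio scaling, and 0.64 to 0.73 when single libraries were left out; for all tested genes it was 0.16 with a pseudocount of 0.1, 0.0699 with 5, 0.0328 without a filter and 0.00198 with median-ratio scaling, and 0.10 to 0.14 without single libraries. Median-ratio scaling gave a ratio of 1.50 in place of 1.67 for the summed value of the members at 2 h over 0 h. The cause of these shifts was not tested. With the replicate block, 96 members had risen and 12 had fallen at 2 h, and 2 of 12 libraries were closest to those of their own number. Leaving out single libraries moved the counts of risen and fallen members to 88 to 97 and 8 to 14, and those of the course that rose at 2 h and was lower at 4 h to 40 to 45. Depth is unknown, which limits all statements on genes listed at 0.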
